A study of Mus musculus with 20 samples.

Results

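The data described here are the hippocampal arrays of a study of mice that carry a null mutation of NHE1. They are 5 of the 20 arrays of the series, chosen by their titles, and each was a cDNA array with 2 channels. One channel held amplified RNA from the hippocampus of an NHE1 null mutant, and the other held amplified RNA pooled from the hippocampus of wild-type mice. The other 15 arrays compared cortex, cerebellum and brain stem-diencephalon in the same way. Arrays 1, 2 and 3 had the null RNA in channel 1, and the dye-swapped arrays 1DS and 2DS had it in channel 2. Arrays with the same number were averaged, which gave 3 hippocampal replicates. Amplification was common to both genotypes on every array. The labels used here do not give the age, sex or strain of the mice, or say whether arrays of different number came from different animals. The p-values therefore refer to the spread among arrays, an unknown part of which may be technical. The wild-type pool was the sole control, and no test includes the variation among wild-type samples.

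NHE1 is the sodium-proton exchanger of the plasma membrane found in most cells. It brings sodium in and moves protons out, and so takes part in the recovery of neurons from an acid load, in cell volume and in the anchoring of actin through ezrin, radixin and moesin. In the hippocampus, intracellular pH acts on the excitability of pyramidal neurons, and mice without NHE1 are known for ataxia and seizures.

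In the NHE1 null hippocampus the RNA of the cold-inducible RNA-binding protein Rbm3 was 3.28-fold higher than in the wild-type pool, and that of its relative Cirbp was 1.40-fold higher. Protein kinase C delta (Prkcd) was 1.93-fold lower, the phosphatase inhibitor DARPP-32 (Ppp1r1b) was 1.54-fold lower, and the catalytic subunit of calcineurin (Ppp3ca) was 1.52-fold higher. The largest falls among named genes were those of Xpo4, Msantd1 and Jag1, from 4.13-fold to 4.92-fold. Another Xpo4 probe, which was not tested, had a median log2 ratio of -0.20. Most ribosomal protein and proteasome genes had ratios above 0, although few or none of them passed the test alone. Of all features, Prkcd alone passed the test of a difference between hippocampus and the mean of the other 3 regions. That call was lost with 11 of the 13 replicates of the series left out singly. Among the calls in hippocampus, leaving out single replicates ended that of Cirbp in 9 of 13 fits, Ppp1r1b in 8 and Ppp3ca in 2. All ratios are log2 values of null over wild type, which is the likely direction only. The sources used here state neither which channel was divided by which nor the base of the log, and with the channels the other way round all signs would reverse.

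Of the 15245 probes, 10695 had a value on array 1, 13963 on array 2, 12164 on array 3, 13518 on array 1DS and 9690 on array 2DS. The medians of the deposited values lay between 0.0154 and 0.0451. Before the swapped arrays were turned, array 1 correlated with 1DS at -0.271 across probes and array 2 with 2DS at -0.616. After turning, arrays 2 and 3 correlated at 0.684 and array 1 with 2DS at -0.153, where probes are not independent replicates. Of the 3 replicates, 2 and 3 resembled each other most, with a correlation of 0.603 across features, against 0.142 for replicates 1 and 2 and 0.186 for 1 and 3. The Y-linked translation factor Eif2s3y stood at -1.29 and -0.99 on arrays 1 and 1DS, at 1.02 and 1.28 on arrays 2 and 2DS and at 1.34 on array 3. Replicate 1 was therefore opposite in sign to replicates 2 and 3, while Xist, the RNA of the inactive X chromosome, stood between 0.05 and 0.51 on the 4 arrays with a value. For genes that differ by sex, sex and mutation cannot be told apart. Values are ratios with no level behind them, so the hippocampal origin of the RNA could not be read from the presence of its markers.

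At an adjusted p under 0.05, 55 of 8319 features passed the test in hippocampus (0.661%). Of these, 13 were higher (0.156%) and 42 lower (0.505%), and all 55 had one sign in every replicate with a value. They comprised 29 named genes, 8 higher and 21 lower, and 26 unnamed probes, which had no gene symbol or several, 5 higher and 21 lower, with log2 ratios from -4.25 to 0.88. The smallest change among them was 1.33-fold, and 38 reached 1.5-fold. At an unadjusted p under 0.05 the split was close to even, with 587 features higher (7.06%) and 589 lower (7.08%). The count depended on single replicates, and it was 13 without hippocampal replicate 2, 19 without hippocampal replicate 3, 35 without cerebellar replicate 2, and 36 without either cerebellar replicate 3 or brain stem-diencephalon replicate 3, since the regions share 1 estimate of the spread. Without hippocampal replicate 1, which stood apart in Eif2s3y, 50 features passed, 28 of them among the 55. Of the 29 genes, 11 kept their call without hippocampal replicate 1, 5 without replicate 2, 7 without replicate 3, and between 14 and 29 without a replicate of another region. Rbm3, Xpo4, Msantd1 and Jag1 kept it whichever of the 13 replicates of the series was left out.

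**Figure D1:**
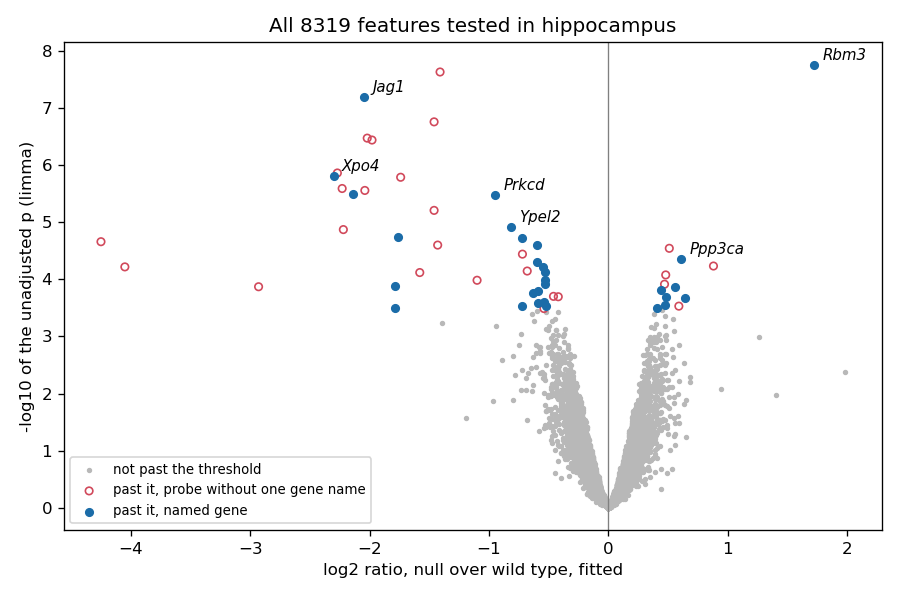
Fitted log2 ratio of null over wild type in hippocampus (x axis) against the -log10 of the unadjusted p of limma's moderated test (y axis) for the 8319 features, with those past an adjusted p of 0.05 as filled circles for the 29 named genes and open circles for the 26 unnamed probes. Rbm3 stands alone at the upper right at 1.72, and the calls beyond -1 on the left are 6 genes and 16 unnamed probes.

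The cold-response genes were led by Rbm3, an RNA-binding protein that is induced by mild cooling and is known for its part in keeping synapses. Its log2 ratios were 1.57 on array 1, 1.27 on 1DS, 2.01 on 2, 2.08 on 2DS and 1.72 on 3. All 5 arrays were far above 0, with replicate 1 the lowest. The fitted value was 1.72 ± 0.15 (SE, n = 3 replicates), with an adjusted p of 9.83e-05. Cirbp, the other cold-inducible member of the family, stood at 0.50, 0.62, 0.35, 0.52 and 0.53 on arrays 1, 1DS, 2, 2DS and 3. Its 5 arrays lay close together, and it rose by 0.48 ± 0.09 with an adjusted p of 0.0375. That call was lost with 9 of the 13 replicates left out, with an adjusted p of up to 0.257 without hippocampal replicate 2, at values from 0.43 to 0.51. Of the list of 8 tested genes of the cold and heat response, these 2 passed and the other 6 lay below 0. By comparison, 0.156% of all features were called higher. The co-chaperone Hsph1 was at -0.47 ± 0.18 (adjusted p = 0.261) and Dnajb1 at -0.26 ± 0.10 (adjusted p = 0.283), and neither passed. The replicates of Dnajb1, at -0.10, -0.22 and -0.18, were all nearer 0 than its fitted value, with an orientation term of 0.27 in the model. The median of the list was -0.100, against 0.00830 for all features. Body temperature is not in the labels used here.

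Promoter windows were listed for 21 of the 29 called genes, and 2 of them are shown because they belong to the gene called in the comparison with the mean of the other regions and to a cold-inducible gene. They are the 250 bases before the first listed start, from RefSeq on GRCm38.p6. Prkcd lies at chr14:30626209-30626458 on the minus strand and Cirbp at chr10:80167589-80167838 on the plus strand. Capitals mark, on either strand, the GC box GGGCGG, the CCAAT box and the TATA box with its letters TATAAA.
Prkcd: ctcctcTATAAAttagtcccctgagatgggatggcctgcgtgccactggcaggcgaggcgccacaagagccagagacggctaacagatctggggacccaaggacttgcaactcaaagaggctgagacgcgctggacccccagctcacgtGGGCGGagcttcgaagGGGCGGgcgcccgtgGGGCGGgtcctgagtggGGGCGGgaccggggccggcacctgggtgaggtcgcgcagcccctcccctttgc
Cirbp: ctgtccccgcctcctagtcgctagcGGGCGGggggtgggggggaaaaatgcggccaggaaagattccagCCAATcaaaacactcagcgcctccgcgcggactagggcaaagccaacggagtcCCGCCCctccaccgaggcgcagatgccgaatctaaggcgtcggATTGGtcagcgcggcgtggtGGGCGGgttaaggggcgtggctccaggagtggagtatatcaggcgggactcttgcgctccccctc
The Prkcd window held 4 GC boxes and 1 TATAAA, and the Cirbp window held 3 GC boxes and 2 CCAAT boxes. A GC box was present in 8 of the 21 windows of called genes (38.1%), against 62.5% of the 4283 windows of tested genes and 32.9% of all 27025 windows. The CCAAT box was present in 33.3%, 37.1% and 34.5% of these windows in the same order, and TATAAA in 9.52%, 6.33% and 13%. The half-site of the cAMP response element (TGACG, either strand) was present in 2 of the 21 windows (9.52%), against 30.1% and 17.9%. These counts are matches of letters and were read without a test.

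Among calcium and cAMP signalling enzymes, 22 of the 25 genes on the array were tested, and 1 was called higher and 2 lower, with a list median of -0.0313. Over all features, 0.156% were called higher and 0.505% lower. Prkcd, a protein kinase C isoform activated by diacylglycerol without calcium, stood at -0.80, -0.87, -1.28, -1.29 and -0.68 on arrays 1, 1DS, 2, 2DS and 3. Every array was well below 0, and the arrays of a swapped pair lay close to each other. The fitted value was -0.95 ± 0.13 (SE, n = 3), with an adjusted p of 0.00218. Hippocampal replicate 2 was the only replicate whose omission ended the call, at an adjusted p of 0.0678, and the value ranged from -1.06 to -0.77 over the left-out replicates. Prkcd is also a marker of thalamic neurons. The other 4 tested genes of the thalamic list did not pass. Rora was fitted at 0.30 ± 0.23, Patj at 0.12 ± 0.10 and Adarb1 at -0.05 ± 0.09. Plekhg1 had replicates at 0.01, -0.06 and -0.05, and its fitted 0.49 ± 0.41 reflects the orientation term of the model (-0.79) rather than its hippocampal arrays. The part of thalamic tissue in the Prkcd result was not tested. In bulk tissue, fewer cells of a type and less RNA per cell cannot be told apart.

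Ppp1r1b encodes DARPP-32, which inhibits protein phosphatase 1 once protein kinase A has phosphorylated it and which calcineurin can dephosphorylate. It stood at -0.83, -1.06, -0.33, -0.49 and -0.30 on arrays 1, 1DS, 2, 2DS and 3. All arrays were below 0, and those of replicate 1 were lowest. The gene fell by 0.63, with a fitted value of -0.63 ± 0.12 and an adjusted p of 0.0343. The call was lost with 8 of the 13 replicates left out, at an adjusted p of up to 0.123 without hippocampal replicate 3. Ppp1r1b is most abundant in striatum, and the other tested striatal marker, the GTPase Rasd2, stood at -0.42 ± 0.13 (adjusted p = 0.153), so its 2 tested markers were both below 0. The part of striatal tissue in the result was not tested.

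Ppp3ca, the calcium-dependent phosphatase subunit of calcineurin, stood at 0.57, 0.18, 0.70, 0.90 and 0.75 on arrays 1, 1DS, 2, 2DS and 3. All arrays were above 0, and 1DS was the lowest. Ppp3ca rose by 0.61 ± 0.10 (adjusted p = 0.0155), and the call was lost without hippocampal replicate 2 (adjusted p = 0.257) or 3 (adjusted p = 0.109). The catalytic subunit of protein kinase A, Prkaca, stood between -0.47 and -0.10 on the 5 arrays, with a fitted value of -0.34 ± 0.10 that did not pass (adjusted p = 0.153). Cdk18, a neuronal cyclin-dependent kinase of the PCTAIRE family, was at -0.28, -0.44, -0.74, -0.69 and -1.04 on arrays 1, 1DS, 2, 2DS and 3. Its lowest value was on array 3 and its highest on array 1, and the fitted value was -0.72 ± 0.15 (adjusted p = 0.0477, lost with 10 of the 13 replicates left out).

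**Figure D2:**
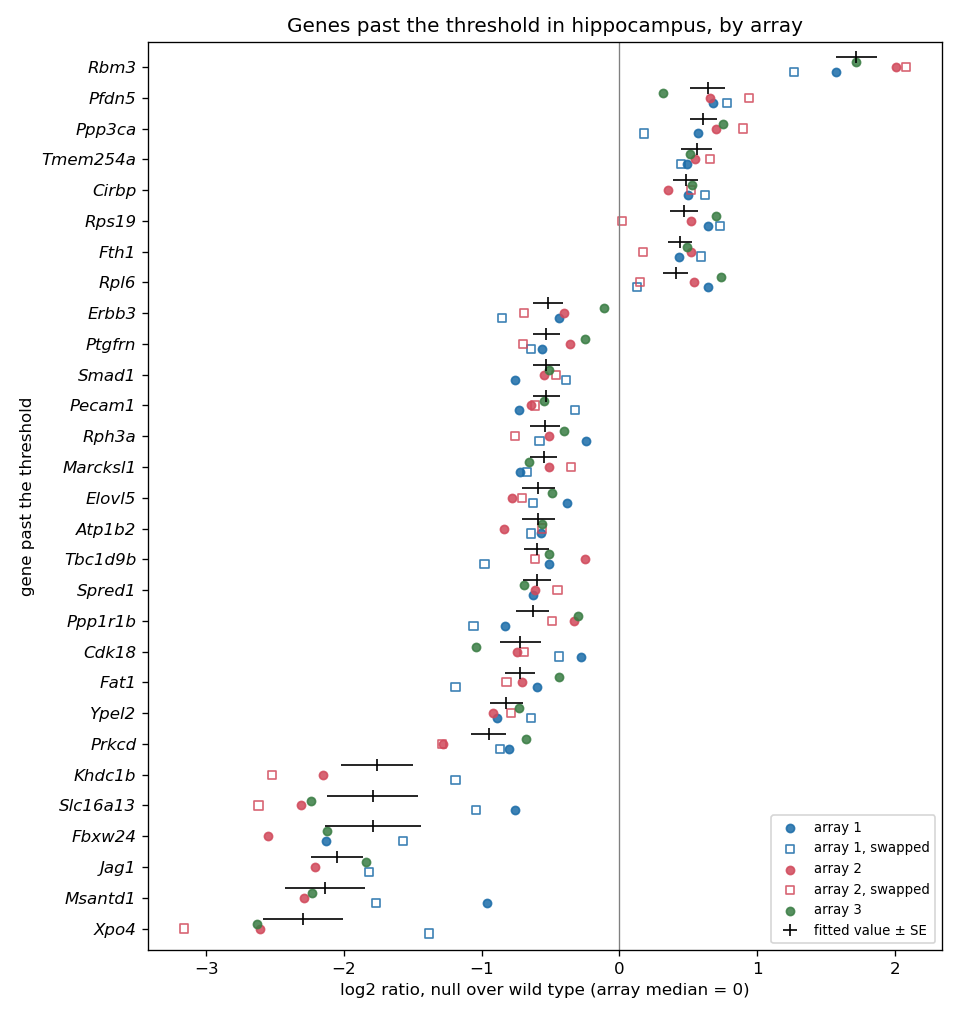
Log2 ratio of null over wild type (x axis, each array centred on its median) for the 29 named genes past the threshold, with 1 point per array and open squares for dye-swapped arrays; crosses give the fitted value with its standard error. Rbm3 lies apart on the right, from 1.27 to 2.08, and the genes from Khdc1b to Xpo4 at the bottom spread widely, with arrays of number 1 mostly nearest 0.

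The largest ratios were negative. Of the 42 lower features, 22 lay beyond -1, 6 of them named genes and 16 unnamed probes. In the 20 of them with all 3 replicates, replicate 1 was the nearest to 0 in 19. Among all 40 lower calls with 3 replicates it was nearest in 22. Replicate 1 is also the one that stood apart in Eif2s3y. In fits without it, Xpo4 was at -2.92 against -2.30, Msantd1 at -2.72 against -2.14 and Jag1 at -2.44 against -2.05. Slc16a13 was at -2.29 against -1.79, Khdc1b, then on 1 hippocampal replicate, at -2.33 against -1.76, and Fbxw24 at -1.73 against -1.79. Why replicate 1 lay nearer to 0 was not tested.

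Xpo4, a nuclear transport receptor of the importin family, had no value on array 1 and stood at -1.38 on 1DS, -2.61 on 2, -3.16 on 2DS and -2.63 on 3. Replicates 2 and 3 were far below 1DS, and the fitted value was -2.30 ± 0.29 (adjusted p = 0.00151). Msantd1, a protein with a Myb-like domain, stood at -0.96, -1.77, -2.29 and -2.23 on arrays 1, 1DS, 2 and 3, with none on 2DS. It fell by 2.14, with a fitted value of -2.14 ± 0.29 (adjusted p = 0.00218). Jag1, a ligand of Notch receptors, stood at -1.82 on 1DS, -2.21 on 2 and -1.84 on 3, with no value on 1 or 2DS. Its 3 replicates lay within a narrow band around the fitted value of -2.05 ± 0.19 (adjusted p = 1.76e-04).

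Slc16a13, a member of the monocarboxylate transporter family, stood at -0.76, -1.04, -2.31, -2.62 and -2.24 on arrays 1, 1DS, 2, 2DS and 3. The arrays of replicate 1 were clearly nearer 0 than the others, and the fitted value was -1.79 ± 0.33 (adjusted p = 0.0291, up to 0.332 without hippocampal replicate 2). Fbxw24, an F-box protein, stood at -2.13, -1.57, -2.55 and -2.12 on arrays 1, 1DS, 2 and 3. Its arrays did not separate by replicate number, and the fitted value was -1.79 ± 0.35 (adjusted p = 0.0492, up to 0.237 without hippocampal replicate 2). That value lay nearer 0 than all 3 replicates of Fbxw24 (-1.85, -2.55 and -2.12), with an orientation term of -0.57 in the model. Khdc1b, a KH-domain protein best known from oocytes, had values on 1DS, 2 and 2DS only, at -1.19, -2.15 and -2.52, and so rested on 2 replicates. It was at -1.76 ± 0.26 (adjusted p = 0.00860, and 0.307 at a value of -1.09 without hippocampal replicate 2).

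Other probes of these genes did not move with the tested ones. The tested Xpo4 probe had a hippocampal median of -2.62, and another Xpo4 probe, with a value on 3 arrays, had -0.20. For Slc16a13 the tested probe had -2.24 and another, with 3 arrays, 0.00. For Khdc1b the medians were -2.15 for the tested probe and -0.38 and 0.25 for probes with 2 and 3 arrays. The low values of these 3 genes therefore belong to a single probe each. Over the replicates of the series, the profiles of 12 of the called features followed that of Xpo4 with a correlation above 0.8, among them Khdc1b (0.939), Jag1 (0.867), Msantd1 (0.824) and 9 unnamed probes. This likeness is a description over at most 13 replicates that share arrays, and it includes the hippocampal values by which the features were called.

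Among the remaining genes that fell were Ypel2, Spred1, Smad1 and Erbb3. Ypel2, a member of the yippee family of zinc-binding proteins, stood at -0.89, -0.64, -0.92, -0.79 and -0.73 on arrays 1, 1DS, 2, 2DS and 3. These 5 values lay close together, and the fitted value was -0.82 ± 0.12 (adjusted p = 0.00664). The call was lost without hippocampal replicate 2 (adjusted p = 0.112) or 3 (adjusted p = 0.0550). Spred1, an inhibitor of the Ras and MAP kinase pathway, stood at -0.63, -0.61, -0.45 and -0.69 on arrays 1, 2, 2DS and 3, with no value on 1DS. Its arrays lay close together, and it was at -0.60 ± 0.10 (adjusted p = 0.0166, up to 0.175 without hippocampal replicate 2). Smad1, which carries bone morphogenetic protein signals to the nucleus, was at -0.53 ± 0.10 (adjusted p = 0.0254, lost with 5 of the 13 replicates left out). Erbb3, a neuregulin receptor found on oligodendrocyte lineage cells and Schwann cells, was at -0.52 ± 0.11 with arrays from -0.85 to -0.11 (adjusted p = 0.0477, lost with 10 of 13 left out).

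Fat1, Atp1b2, Ptgfrn and Elovl5, whose products lie in membranes, also fell. Fat1, an atypical cadherin, stood at -0.60, -1.19, -0.71, -0.82 and -0.44 on arrays 1, 1DS, 2, 2DS and 3. All arrays were below 0 with 1DS the lowest, and the fitted value was -0.72 ± 0.11 (adjusted p = 0.00860, but 0.0629 without hippocampal replicate 1 and 0.136 without replicate 2). Atp1b2, the beta subunit of the sodium pump that is found mainly on astrocytes, stood at -0.57, -0.64, -0.84, -0.56 and -0.56 on the same arrays. Its arrays agreed closely, but the call was near the threshold at -0.59 ± 0.12 (adjusted p = 0.0460) and was lost with 12 of the 13 replicates left out, at up to 0.350. The tetraspanin partner Ptgfrn was at -0.53 ± 0.10 (adjusted p = 0.0205), and its call was lost without any 1 of the 3 hippocampal replicates, at up to 0.214. Elovl5, which elongates polyunsaturated fatty acids, was at -0.59 ± 0.12 (adjusted p = 0.0320, lost with 8 of 13 left out, up to 0.343).

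Rph3a, Tbc1d9b and Marcksl1 were called lower as well. Rph3a encodes rabphilin, a Rab3 effector on synaptic vesicles, and stood at -0.24, -0.58, -0.51, -0.76 and -0.40 on arrays 1, 1DS, 2, 2DS and 3. All arrays were below 0, and it was at -0.54 ± 0.11 (adjusted p = 0.0434, lost with 9 of 13 left out). Tbc1d9b, a protein with a Rab GTPase-activating domain, was at -0.60 ± 0.09 with arrays from -0.98 to -0.25 (adjusted p = 0.0101). Its call was lost without hippocampal replicate 1 (adjusted p = 0.0674) or 3 (adjusted p = 0.0854). Marcksl1, a protein kinase C substrate that binds membranes and actin, stood at -0.72, -0.67, -0.51, -0.35 and -0.66. Its arrays all lay below 0 and its 2 probes had medians of -0.52 and -0.55, and the fitted value was -0.55 ± 0.10 (adjusted p = 0.0180, up to 0.112 without hippocampal replicate 2).

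Of the 7 higher genes besides Rbm3, Pfdn5, a subunit of the prefoldin chaperone that hands actin and tubulin to the chaperonin, stood at 0.68, 0.78, 0.66, 0.94 and 0.32 on arrays 1, 1DS, 2, 2DS and 3. Array 3 was the lowest, and the fitted value was 0.64 ± 0.13 (adjusted p = 0.0383, lost with 8 of 13 left out). Tmem254a, a membrane protein, was at 0.56 ± 0.11 with arrays from 0.45 to 0.66 (adjusted p = 0.0291, lost with 7 of 13 left out). Fth1, the heavy chain of the iron store ferritin, stood at 0.43, 0.59, 0.52, 0.17 and 0.49. Only 2DS was much lower than the rest, and Fth1 rose by 0.44 ± 0.09 (adjusted p = 0.0320, lost with 7 of 13 left out). Of the 25 tested genes of iron and redox, 17 lay above 0 with a median of 0.0914, and Fth1 alone passed. Among all features, 51.8% lay above 0 and 0.156% were called higher. The transferrin receptor Tfrc was at 0.29 ± 0.11 (adjusted p = 0.240).

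Ribosomal protein genes had ratios above 0 almost throughout the list. Of the 73 on the array 67 were tested, and 63 of these lay above 0, against 51.8% of all features. The list median was 0.162, with medians of 0.205, 0.120 and 0.228 in replicates 1, 2 and 3. One sign in all 3 replicates was seen for 36 of the 67 on the higher side and for none on the lower side, against 16.6% and 15.4% of all features. By limma's test 2 members were called higher and none lower, and 21 were higher at an unadjusted p under 0.05 and none lower. Over all features, 0.156% were called higher, and 7.06% were higher and 7.08% lower at an unadjusted p under 0.05. Rps19, of the small subunit, stood at 0.64, 0.73, 0.52, 0.02 and 0.70 on arrays 1, 1DS, 2, 2DS and 3. Array 2DS was near 0 and the other 4 were high, and Rps19 was at 0.47 ± 0.10 (adjusted p = 0.0477). Rpl6, of the large subunit, stood at 0.64, 0.13, 0.54, 0.15 and 0.74. Both swapped arrays were lower than the other 3, and Rpl6 was at 0.41 ± 0.09 (adjusted p = 0.0492). These calls were lost with 12 and 11 of the 13 replicates left out, while the list median stayed between 0.140 and 0.213 over 24 other settings. Ribosomal protein genes have many near-identical copies in the genome, and cDNA probes may not tell them apart.

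Proteasome genes leaned the same way without a call. Of the 39 tested, 30 lay above 0 with a median of 0.182, and by limma's test none passed, while 8 were higher and none lower at an unadjusted p under 0.05. Of all features, 51.8% lay above 0, and 7.06% were higher and 7.08% lower at that p. The ATPase subunit Psmc1 stood at 0.60, 0.25, 0.47, 0.09 and 0.71 on arrays 1, 1DS, 2, 2DS and 3, and the core subunit Psmb4 at 0.72, -0.27, 0.63, 0.02 and 0.84. In both genes the swapped arrays were lower than the others. Of the 53 tested genes of oxidative phosphorylation, 37 lay above 0 with a median of 0.0643, none passed, and 5 were higher at an unadjusted p under 0.05. The shares of all features given above apply here as well. The complex I subunit Ndufs3 had the smallest p, at 0.43 ± 0.12 (adjusted p = 0.123).

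**Figure D3:**
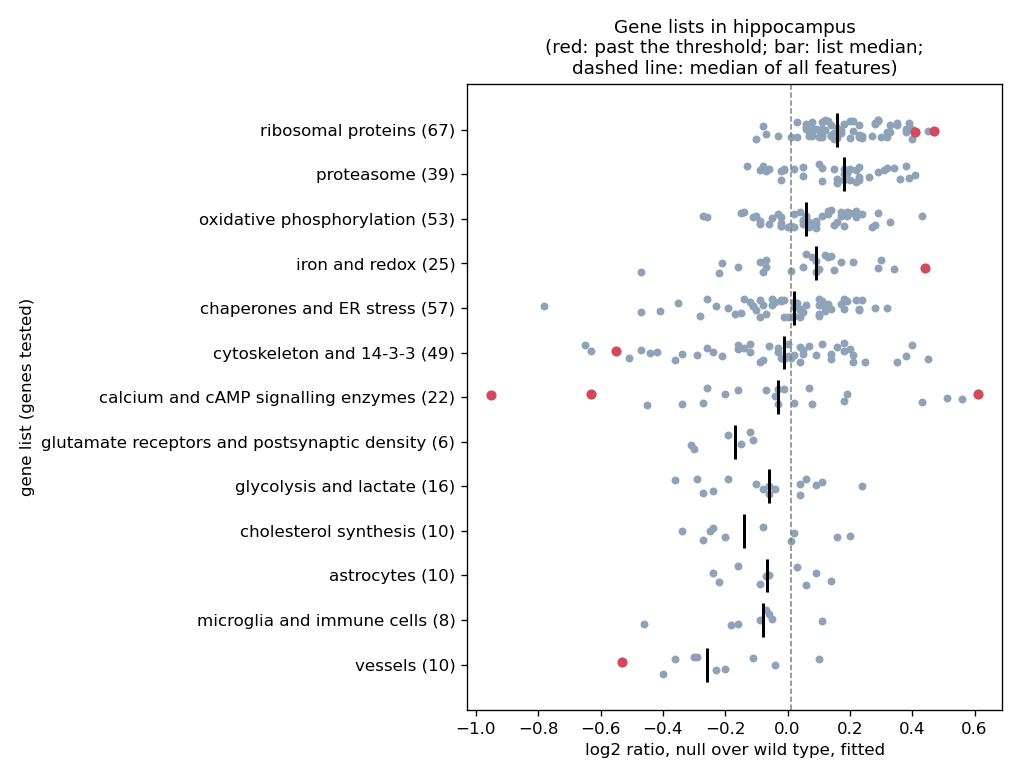
Fitted log2 ratios of null over wild type in hippocampus (x axis) for the tested genes of 13 lists (y axis, number of genes in brackets), with 1 point per gene, red for an adjusted p under 0.05, bars for list medians and a dashed line at the median of all features, 0.00830. The ribosomal list has its median at 0.162 and the proteasome at 0.182, and the vessel list, drawn at the bottom, at -0.261.

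No acid-base transporter or carbonic anhydrase passed among 9 tested of 14 on the array, and 6 lay below 0 with a median of -0.0994. By limma's test 1 was lower at an unadjusted p under 0.05, the neuronal carbonic anhydrase Car7, which stood at -0.19, -0.11, -0.46, -0.79 and -0.37 on arrays 1, 1DS, 2, 2DS and 3. All its arrays were below 0, and the fitted value was -0.42 ± 0.12 (adjusted p = 0.153). In the vacuolar proton pump 8 of 10 tested subunits lay above 0 and none passed, with 1 higher and 2 lower at an unadjusted p under 0.05. Of all features, 51.8% lay above 0, and 7.06% were higher and 7.08% lower at that p. The membrane-domain subunit Atp6v0a2 was at -0.38 ± 0.09 (adjusted p = 0.0942) and the catalytic subunit Atp6v1a at 0.50 ± 0.15 (adjusted p = 0.166). Of 8 sodium and calcium pumps and exchangers, Atp1b2 alone was called, on the lower side, where 0.505% of all features were called. The sodium pump modulator Fxyd6 was at 0.42 ± 0.18 (adjusted p = 0.297). Partners of NHE1 showed small ratios, between -0.30 and 0.20 for 10 tested genes, and none passed, with 1 lower at an unadjusted p under 0.05. That gene was the actin linker radixin (Rdx), at -0.30 ± 0.09 (adjusted p = 0.153), while the obligate cofactor Chp1 was at 0.19 ± 0.11 (adjusted p = 0.477).

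Genes of excitability and the synapse were thinly covered. Voltage-gated potassium and calcium channels had 12 tested members of 17, none called, with 1 higher and 1 lower at an unadjusted p under 0.05. For comparison, 7.06% of all features were higher and 7.08% lower at that p, and 0.505% were called lower. The A-type potassium channel Kcnd2 was at 0.38 ± 0.12 (adjusted p = 0.184). The only sodium channel tested, the beta subunit Scn2b, was at -0.41 and did not pass. All 6 tested genes of glutamate receptors and the postsynaptic density lay below 0 with a median of -0.168, none passed, and 1 was lower at an unadjusted p under 0.05, the scaffold Dlgap4 at -0.31 ± 0.11 (adjusted p = 0.240). Neither of the 2 GABA and glycine genes on the array had enough values to be tested. In the synaptic vesicle cycle, with 11 tested genes, Rph3a alone was called, and the endocytic phosphatase Synj1 was at 0.54 ± 0.15 (adjusted p = 0.123). The immediate early genes Fos and Egr1 were at -0.19 ± 0.16 and 0.03 ± 0.09, and none of the 5 tested activity genes passed, with 1 lower at an unadjusted p under 0.05 (Fosl2, -0.37 ± 0.09, adjusted p = 0.0915).

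Stress, metabolic and cytoskeletal lists were spread around 0. Of 57 tested chaperone and ER stress genes 30 lay above 0 with a median of 0.0150, none passed, and 4 were higher and 4 lower at an unadjusted p under 0.05. Beside this and the lists that follow, 7.06% of all features were higher and 7.08% lower at that p. The share called lower was 0.505%. The ER disulfide isomerase Pdia4 was the lowest at -0.78 ± 0.23 (adjusted p = 0.153), with 0.02 on array 1 and -0.93 on 2DS. Glycolysis had 10 of 16 tested genes below 0 and none passed, with 4 lower and none higher at an unadjusted p under 0.05, among them the neuronal glucose transporter Slc2a3 at -0.36 ± 0.10 (adjusted p = 0.134). Cholesterol synthesis had 10 tested genes and none passed, with 1 lower at an unadjusted p under 0.05, Hmgcs1 at -0.24 ± 0.09 (adjusted p = 0.240). In the cytoskeletal and 14-3-3 list of 49 tested genes Marcksl1 alone was called, while 6 were higher and 10 lower at an unadjusted p under 0.05. The adaptor Ywhag was at -0.65 ± 0.19 (adjusted p = 0.150), with -0.07 and -0.31 on the arrays of replicate 1 and -0.95, -0.67 and -0.97 on the others. Neuronal tubulin Tubb3 was at -0.63 ± 0.20 (adjusted p = 0.181) and Stmn1, which destabilises microtubules, at -0.51 ± 0.17 (adjusted p = 0.196). Ywhaz was also lower, with replicates at -0.15, -0.69 and -0.83, while Arpc5 leaned higher, at 0.13, 0.64 and 0.55. In these genes as well the arrays of replicate 1 were the nearest to 0.

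Markers of other cell types were read for the whole of each list. The vessel list had 9 of 10 tested genes below 0 and a median of -0.261. Pecam1, an adhesion molecule of endothelial cells, was called, and 6 of the 10 were lower and none higher at an unadjusted p under 0.05. Over all features, 0.505% were called lower, and 7.08% were lower at that unadjusted p. Pecam1 stood at -0.73, -0.32, -0.64, -0.61 and -0.55 on arrays 1, 1DS, 2, 2DS and 3. All its arrays were below 0, and the fitted value was -0.53 ± 0.10 (adjusted p = 0.0282, lost with 5 of 13 left out, up to 0.314). The basement membrane collagen Col4a1 was at -0.36 ± 0.11 and the endothelial adhesion molecule Esam at -0.30 ± 0.09, both with an adjusted p of 0.156. Pecam1 stood at -0.43, -0.38 and -0.42 in cortex, cerebellum and brain stem-diencephalon. The only erythrocyte gene tested, the beta-globin Hbb-b1, leaned the other way at 0.53 ± 0.17 (adjusted p = 0.184), with replicates at 0.21, 0.73 and 0.47, and globin copies may not be told apart by a cDNA probe. The part of blood and vessel content in the results was not tested.

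No gene of the astrocyte, myelin or microglial lists passed. Of 10 tested astrocyte genes 6 lay below 0 with a median of -0.0659, and by limma's test 1 was lower at an unadjusted p under 0.05, Ndrg2 at -0.24 ± 0.09. Of 4 tested myelin genes 3 lay below 0 with a median of -0.183, none at an unadjusted p under 0.05, with the myelin basic protein Mbp at -0.17 ± 0.19. At that p, 7.08% of all features were lower. Of 8 tested microglial genes 7 lay below 0 with a median of -0.0829 and 1 at an unadjusted p under 0.05. That was the complement gene C1qb, at -0.10, -0.42, -0.49, -0.78 and -0.51 on arrays 1, 1DS, 2, 2DS and 3. All its arrays were below 0, and at -0.46 ± 0.11 it missed the threshold (adjusted p = 0.0933), while its partners C1qa and C1qc stood at -0.18 ± 0.16 and 0.11 ± 0.12.

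Hippocampal neuron markers were few. Of 5 pyramidal cell markers on the array 3 were tested, and the repressor Zbtb18 stood at -0.63 ± 0.17 (adjusted p = 0.123), Bok at 0.44 ± 0.13 (adjusted p = 0.153) and Zbtb20 at -0.02 ± 0.10. Of 8 dentate granule cell markers 4 were tested, and Stxbp6 had the smallest p at 0.45 ± 0.11 (adjusted p = 0.112) and the calcium buffer Calb1 was at 0.19 ± 0.10. No gene of the interneuron list was named among the probes used here. Of the neighbouring tissues, choroid plexus had 2 tested markers that pointed apart, with the transthyretin gene Ttr at 0.68 ± 0.21 (adjusted p = 0.159) and the growth factor Igf2 at -0.48 ± 0.13 (adjusted p = 0.122). The meningeal list of 8 tested genes, which also holds Igf2, had a median of -0.00861.

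To ask whether any ratio was particular to hippocampus, it was compared within the same fit with the mean of cortex, cerebellum and brain stem-diencephalon. By limma's test 1 of 8319 features passed (0.0120%), and 258 had an unadjusted p under 0.05. The feature that passed was Prkcd, with replicates at -0.83, -1.28 and -0.68 in hippocampus, 0.43, -0.04, 0.24 and 0.37 in cortex, 0.10, -0.14 and -0.07 in cerebellum, and -0.10, 0.07 and 0.38 in brain stem-diencephalon. The 3 hippocampal replicates lay below all 10 of the other regions. The difference was -1.05 ± 0.14 (adjusted p = 0.0325). Against cortex alone it was -1.19 ± 0.17 (adjusted p = 0.0405), and the same share of 0.0120% of features passed. Against cerebellum it was -0.91 ± 0.18 (adjusted p = 0.200) and against brain stem-diencephalon -1.05 ± 0.18 (adjusted p = 0.319), neither past the threshold. The call of the difference from the mean rested on many replicates. It was lost without hippocampal replicate 1 (adjusted p = 0.134), 2 (0.307) or 3 (0.0755), cortical replicate 1 (0.0546), 3 (0.0856) or 4 (0.0543), cerebellar replicate 1 (0.0604), 2 (0.0781) or 3 (0.0578), and brain stem-diencephalon replicate 2 (0.0829) or 3 (0.0967). The value stayed between -1.16 and -0.88 throughout. The 10 replicates of the other regions are not all separate, since 1 swapped array of cerebellum and 1 of brain stem-diencephalon hold nearly the same values. Without both of these the call was lost, at an adjusted p of 0.106.

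The next genes by p in this comparison did not pass. Ttr, the choroid plexus carrier of thyroid hormone, had replicates at 1.24, 0.13 and 0.98 in hippocampus, -0.13, -0.67, -0.66 and -0.73 in cortex, -1.07, -1.54 and -0.23 in cerebellum, and -0.40, -0.42 and 0.26 in brain stem-diencephalon. Hippocampal replicates 1 and 3 were above all others, and replicate 2 was within the range of brain stem-diencephalon. The difference was 1.33 ± 0.23 (adjusted p = 0.200). Ppp1r1b had replicates at -0.94, -0.41 and -0.30 in hippocampus and between 0.19 and 0.34 in cortex, but 1 replicate of brain stem-diencephalon stood at -0.64. Its difference was -0.58, that of Tbc1d9b -0.45, that of C1qb -0.49, that of Fth1 0.37 and that of the integrin Itga1 0.40, each with an adjusted p of 0.999. Rbm3 was high in every region, with replicates from 1.42 to 2.05 in hippocampus and from 0.98 to 1.78 in the other 3, and the ranges overlap.

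**Figure D4:**
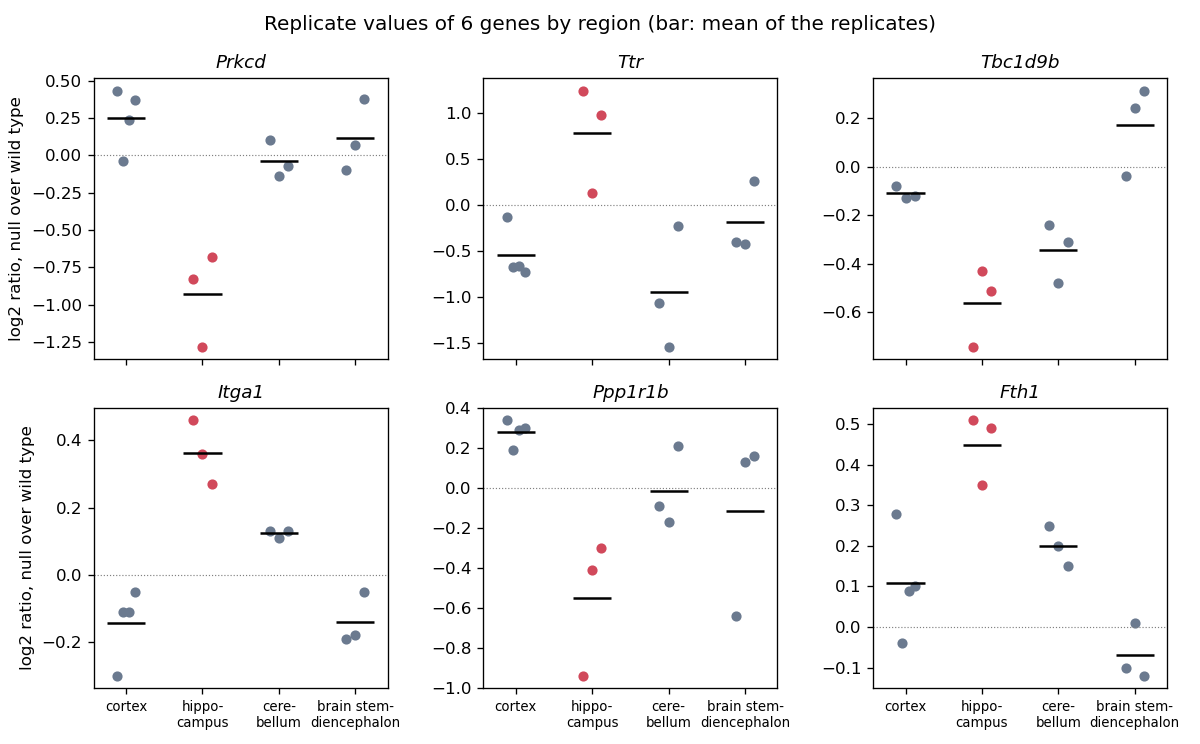
Replicate values of the log2 ratio of null over wild type (y axis, a scale of its own in each panel) by brain region for 6 genes with small p-values in the comparison of hippocampus with the other regions, with hippocampus in red and bars at the mean of the replicates. Prkcd in hippocampus, at -0.83, -1.28 and -0.68, lies below every replicate of the other regions, and for Ttr hippocampal replicate 2, at 0.13, lies apart from 1.24 and 0.98.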

How the data were processed

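The series matrix held 1 column per array, and hippocampus was covered by 5 of 20 arrays. The values are log2 ratios of the 2 channels as deposited by the authors, centred near 0. The unit was read from their range, and no source used here describes the background correction or normalization behind them. The intensities of the channels were not used here, and precision is limited by how few arrays there were.

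Dye-swapped arrays were multiplied by -1 and every array was centred on its median. Probes needed a value on 3 or more arrays of each region, with 1 or more in each orientation, which left 9701 of 15245. Of all probes, 9604 had 1 gene symbol, 213 several and 5428 none, and 9496 symbols were matched to current ones by Entrez ID. Probes of a gene were averaged into 8319 features (5255 genes and 3064 unnamed probes). Of these, 6145 had a value on all 5 hippocampal arrays, and 5468 had all 13 replicates of the series.

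A model per feature held a term for each region and 1 for array orientation, with cortex at 4 replicates and each other region at 3. The title of 1 swapped cortex array gives no number, and it was counted as cortical replicate 4. Which extract it held is not in the labels used here, so it may not be separate from another cortical replicate. Moderation of the variances used limma 3.58.1 (R 4.3.3), with 8 residual and 6.04 prior degrees of freedom. Adjusted p-values are limma's with Benjamini-Hochberg adjustment over all 8319 features, at a threshold of 0.05, and errors are standard errors of the fit (median 0.116). A fitted value can differ from the mean of its arrays through the orientation term, whose median size was 0.0975. The script was tested on simulated data.

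Genes to name were up to 15 highest and 15 lowest past the threshold and 8 by smallest p in the comparison of regions. They also included 4 by smallest p in each list and every tested member of the cold-response, sex-linked and NHE1 partner lists. Not all of them are given above, and Adarb1, Egr1, Tubb3 and Stmn1 were added from the lists outside this rule. The members, lists and tests were chosen with earlier results of these data known. Promoters came from RefSeq tables of GRCm38.p6. The mutated gene itself is not reported here.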

Additional observations from a re-analysis of the deposited data

Results flagged for a closer look

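Prkcd, which encodes protein kinase C delta, stood out because its ratio in hippocampus differed from that of other regions in a test of the difference itself. By limma's moderated test the hippocampal ratio was lower than the mean of cortex, cerebellum and brain stem-diencephalon by a log2 difference of -1.05 ± 0.14 (adjusted p = 0.0325), and lower than cortex alone by -1.19 ± 0.17 (adjusted p = 0.0405). All 3 hippocampal replicates lay below all 10 replicates of the other regions. The first of these calls was lost with 11 of the 13 replicates left out singly, among them each hippocampal replicate, at an adjusted p of up to 0.307. It was also lost (adjusted p = 0.106) without an array whose values occur nearly unchanged under both cerebellum and brain stem-diencephalon, so the 10 other replicates are not all separate.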

How the results depend on the processing

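The 29 named genes past the threshold were refitted under up to 24 other settings each, 673 fits in all, and all 673 kept their sign while 454 passed the threshold. These genes were called from the same arrays with 1 sign in every replicate, so the kept signs are no separate support. Rbm3, Msantd1 and Jag1 passed in every one. Of 2542 fits of 109 other named genes, 50 changed sign, and 31 of those genes passed in some setting. The count of 55 features moved to 183 (71 higher, 112 lower) with single arrays fitted and the replicate as a random block (correlation 0.378), to 17 (1 higher, 16 lower) with a variance trend and robust moderation, and to 176 without the channel 1 arrays of number 1. It ranged from 13 to 67 with 1 replicate left out. With only the 2060 features that had a value on every array, 38 passed, 22 of them higher. The causes were not tested. The replicate number as a block gave 299 features, 49 of them among the 55. Residuals of hippocampal replicates correlated with those of the same number elsewhere at -0.0956 to 0.710, above 0.1 in 8 of 9 pairs, and with other numbers at -0.509 to 0.434, above 0.1 in 6 of 21. The swapped cortex array without a number in its title was counted among the other numbers, and the 0.434 is one of its pairs. As 1 pair fell short of a mark of 0.1 asked of every pair, the main fit did not take the numbers as pairing. Eif2s3y was below 0 in number 1 of cortex (-1.36), hippocampus (-1.14) and brain stem-diencephalon (-0.54). It was above 0 in number 1 of cerebellum (0.47) and in every other number. Number 1 of cerebellum includes the swapped array whose values occur nearly unchanged in number 2 of brain stem-diencephalon, where Eif2s3y was at 1.32. The part of that array in the 0.47 was not tested. Likeness between same-number replicates of different regions, which 8 of 9 pairs showed, is left out of the main p-values.

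For hippocampus against the other regions, 1 feature passed. With values on every array 0 passed (52 at an unadjusted p under 0.05), without an array that occurs under both cerebellum and brain stem-diencephalon 0 passed (277 unadjusted), with at least 2 hippocampal replicates and no demand on the other regions 2 passed, and with the replicate block 2 passed, Prkcd and Ttr. With 1 replicate left out the count was 0 or 1, and 201 to 385 features had an unadjusted p under 0.05 in the 11 fits with none.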
